A study of Homo sapiens with 18 samples.

Results

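The genes described here are 43 genes of DNA replication and nucleotide supply, measured in MDA-MB-231 cells exposed to paclitaxel, epirubicin or no drug, each at normal and at low oxygen. MDA-MB-231 is an established line derived from a human breast adenocarcinoma, lacks the estrogen receptor and carries mutant p53. The genes were chosen by symbol as named parts of the replication machinery, 43 of the 19775 genes named on the array, and fall into 7 steps. For each gene the probe sets annotated to that symbol alone were considered, and the probe set with the highest mean signal over the 12 arrays compared stands for the gene. All 43 genes had such a probe set, all 43 passed the presence filter, and each lay above the presence threshold of 3.14 (log2 signal) on all 12 arrays, from 4.37 to 14.42.

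The study asked how low oxygen and drug exposure together alter transcripts in cells under chemotherapy. Whole cultures gave the RNA, expression was read on the HG-U133 Plus 2.0 array of Affymetrix, and 6 conditions had 2 arrays each. The conditions were normoxia without drug (N), hypoxia at 1% O2 without drug (H), paclitaxel at 50 µM in normoxia (N tax) or hypoxia (H tax), and epirubicin at 10 µM in normoxia (N epi) or hypoxia (H epi). All 6 shared a 16 hour incubation in medium without serum, so the untreated cells were also serum-deprived. A further 6 arrays, 1 more per condition and called the third arrays, carry a title and a source name that contradict each other and were kept out of the comparisons. The study's methods call the arrays of a condition biological replicates, the sample labels do not describe their cultures, and all values rest on 1 cell line. In RNA from whole cultures, fewer cells in S phase and less RNA per cell cannot be told apart.

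Replication starts at origins, where the origin recognition complex with CDC6 and CDT1 loads the MCM2-7 ring, and CDC45 and the GINS complex then turn the ring into the active helicase. Clamp loaders place the PCNA clamp on primed DNA, where DNA polymerases alpha, delta and epsilon copy the strands, and ribonucleotide reductase and thymidylate synthase feed them with deoxynucleotides. Many of these genes are switched on by E2F factors as cells enter S phase. Paclitaxel stabilizes microtubules and arrests cells in mitosis, whereas epirubicin is an anthracycline that intercalates into DNA and traps topoisomerase II.

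Signals were deposited as GC-RMA values on the log2 scale, and every difference given is a log2 difference from a common limma model of the 12 arrays. The presence filter kept 24151 probe sets, which represent 11197 genes, and these genes give the background for each count. Between 41.4% and 42.6% of probe sets were present per array, and the arrays of a condition correlated at r = 0.976 (N epi) to 0.996 (N). The 5 markers of this line (VIM, CD44, MSN, AXL and CAV1) lay at 12.37 to 15.74, and PGR and CDH1 stayed at 2.234 to 2.25 and ESR1 at 2.24 to 3.27. Against the list of genes low in this line, EPCAM (6.01 to 8.02) and GATA3 (4.71 to 8.79) were present. Of the 7 hepatoma markers, cells used elsewhere in the study, ALB, APOB and FGB lay at 2.234 to 2.61, below the threshold. APOA1 (3.34 on every array), TTR (3.21 to 4.36) and SERPINA1 (6.54 to 8.78) lay above it on all 12 arrays, and AFP (2.234 to 3.68) on 2 epirubicin arrays. Of the keratinocyte markers, KRT5, KRT14, KRT1 and IVL lay at 2.234 to 2.38 and KRT10 at 12.04 to 13.05.

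The epirubicin arrays differed from the others in scale. The median of all present probe sets was 7.36 to 7.46 on the 8 arrays without epirubicin and 6.73 to 7.17 on the 4 with it. The mean over the 12 bacterial poly-A control probe sets moved the other way, from 7.98 to 8.80 without epirubicin to 8.67 to 9.41 with it. Centring the arrays on their medians moved every N epi against N difference up by 0.41, and centring them on the poly-A controls moved it by -0.72. The signal of the 3′ minus the 5′ probe set of ACTB ran from -0.04 to 0.32 without epirubicin and from -0.31 to -0.21 with it. That of GAPDH overlapped, from 0.39 to 0.49 without epirubicin and from 0.42 to 0.48 with it. The mean over the 9 hybridization control probe sets overlapped too, from 10.78 to 11.18 without epirubicin and from 10.997 to 11.26 with it. The part of these differences in the results was not tested. Changes with epirubicin are given relative to the deposited scale, with the counts under both centrings beside them.

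The promoters of 37 of the 43 genes are in the RefSeq table (GRCh38.p14, from 250 bases before to 50 bases after the start). The E2F letters TTTCCCGC, TTTCGCGC, TTTGCCGC or TTTGGCGC, searched on both strands, were in a promoter of 19 of these 37 genes, 51.4%, against 3.99% of all 27305 genes in the table. By step, they were in 7 of 8 helicase genes, 4 of 7 polymerase and primase genes, 2 of 6 clamp and clamp loader genes and 2 of 5 nucleotide genes. CCAAT was in 22 of the 37 genes, 59.5%, against 39.7% of all genes, and an E2F word overlapped a CCAAT in 1 member. The letters were found in 3 of the 9 genes with a promoter here that rose with epirubicin in normoxia, in 7 of 13 that fell and in 9 of 15 that did not pass the test. The 4 sequences shown are those of the genes with an E2F word whose signal moved most with epirubicin, at most 1 per step, with the E2F words in capitals. They show E2F words near the start of genes that fell with the drug (CDT1, GINS3, POLA2) and of a gene that rose (DUT). CDT1, GINS3 and DUT share GCGGGAAA, which is TTTCCCGC on the other strand. POLA2 has TTTCGCGC, and DUT also has TTTGGCGC. The GINS3 word begins 5 bases before the start and runs across it. A match is a description of the letters and not a shown binding site.
CDT1 (chr16:88803539-88803838, plus strand): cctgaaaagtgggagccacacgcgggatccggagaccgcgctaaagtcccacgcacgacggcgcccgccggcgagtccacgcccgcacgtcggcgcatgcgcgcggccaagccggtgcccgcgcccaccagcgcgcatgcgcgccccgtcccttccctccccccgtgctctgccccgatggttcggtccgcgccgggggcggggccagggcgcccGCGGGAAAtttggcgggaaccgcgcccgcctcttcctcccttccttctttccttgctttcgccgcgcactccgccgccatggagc
GINS3 (chr16:58392221-58392520, plus strand): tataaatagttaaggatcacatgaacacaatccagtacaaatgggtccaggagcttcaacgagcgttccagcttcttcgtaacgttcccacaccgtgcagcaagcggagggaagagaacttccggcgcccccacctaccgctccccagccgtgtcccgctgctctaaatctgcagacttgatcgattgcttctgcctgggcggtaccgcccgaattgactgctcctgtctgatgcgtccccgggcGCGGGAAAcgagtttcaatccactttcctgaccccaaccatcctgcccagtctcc
POLA2 (chr11:65261712-65262011, plus strand): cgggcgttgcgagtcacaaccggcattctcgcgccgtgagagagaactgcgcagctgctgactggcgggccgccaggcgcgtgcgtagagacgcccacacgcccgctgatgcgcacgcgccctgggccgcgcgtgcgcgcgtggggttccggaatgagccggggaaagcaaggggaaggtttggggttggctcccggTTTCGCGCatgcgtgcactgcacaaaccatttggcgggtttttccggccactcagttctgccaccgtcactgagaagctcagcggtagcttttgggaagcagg
DUT (chr15:48331947-48332246, plus strand): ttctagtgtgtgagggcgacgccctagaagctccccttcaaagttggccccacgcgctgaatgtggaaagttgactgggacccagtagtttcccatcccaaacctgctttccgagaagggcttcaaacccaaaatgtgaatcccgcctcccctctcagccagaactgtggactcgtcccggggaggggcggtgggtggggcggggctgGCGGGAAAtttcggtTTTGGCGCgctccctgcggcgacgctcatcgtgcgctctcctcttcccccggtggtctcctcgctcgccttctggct

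With paclitaxel in normoxia 34 of the 43 genes fell and 0 rose (limma, N tax against N), where 15.0% of all genes fell and 8.94% rose. At an unadjusted p under 0.05, 38 genes differed, against 36.2% of all genes, and 41 of the 43 differences were below 0. The median change of the 43 genes was -1.197, against -0.03 over all genes. By step, 10 of 11 helicase genes, 6 of 8 polymerase and primase genes, 5 of 5 nucleotide genes, 4 of 6 clamp and clamp loader genes, 3 of 5 origin genes, 3 of 5 single-strand binding and lagging-strand genes and 3 of 3 chromatin genes fell. In hypoxia (H tax against H), on arrays separate from those in normoxia, 38 fell and 0 rose, against 18.2% and 13.3% of all genes, with a median of -1.30. All 34 genes lowered in normoxia were among the 38. Centred on the poly-A controls, 18 genes fell in normoxia and 25 in hypoxia, all downward, where 2.90% and 5.64% of all genes fell.

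With epirubicin, genes of the machinery moved in both directions. In normoxia 14 of the 43 genes fell and 11 rose (N epi against N), where 30.8% of all genes fell and 24.2% rose, and the median change was 0.10 against -0.01 over all genes. The count of changed genes thus lay near the background, and the genes that fell moved further, to -2.54, than those that rose, to 0.96. In hypoxia (H epi against H) 12 fell and 16 rose, against 36.2% and 29.5% of all genes. Of the 14 lowered in normoxia 12 were lowered in hypoxia, where they were all 12 of the genes lowered. Of the 11 raised in normoxia 8 were among the 16 raised in hypoxia. The direction of the rises depended on the scale. Centred on the poly-A controls, 13 genes fell and 0 rose in normoxia, where 35.7% of all genes fell and 0.50% rose. On that scale the changes of the 11 raised genes ran from -0.21 to 0.24. Of these, 3 (RPA2, POLE and POLD1) lay above 0 and 8 below. Centred on the medians, 9 fell and 22 rose, against 22.7% and 44.4% of all genes. In hypoxia the counts were 14 and 0 on the poly-A scale, against 41.6% and 1.55% of all genes. On the median scale they were 7 and 27, against 26.3% and 51.2%. The 25 genes changed in normoxia became fewer once N epi replicate 1, N replicate 1 or N replicate 2 was left out. The 28 changed in hypoxia became fewer without H epi replicate 1 and without H replicate 1. The shares of all genes in these fits are not given here.

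**Figure D1:**
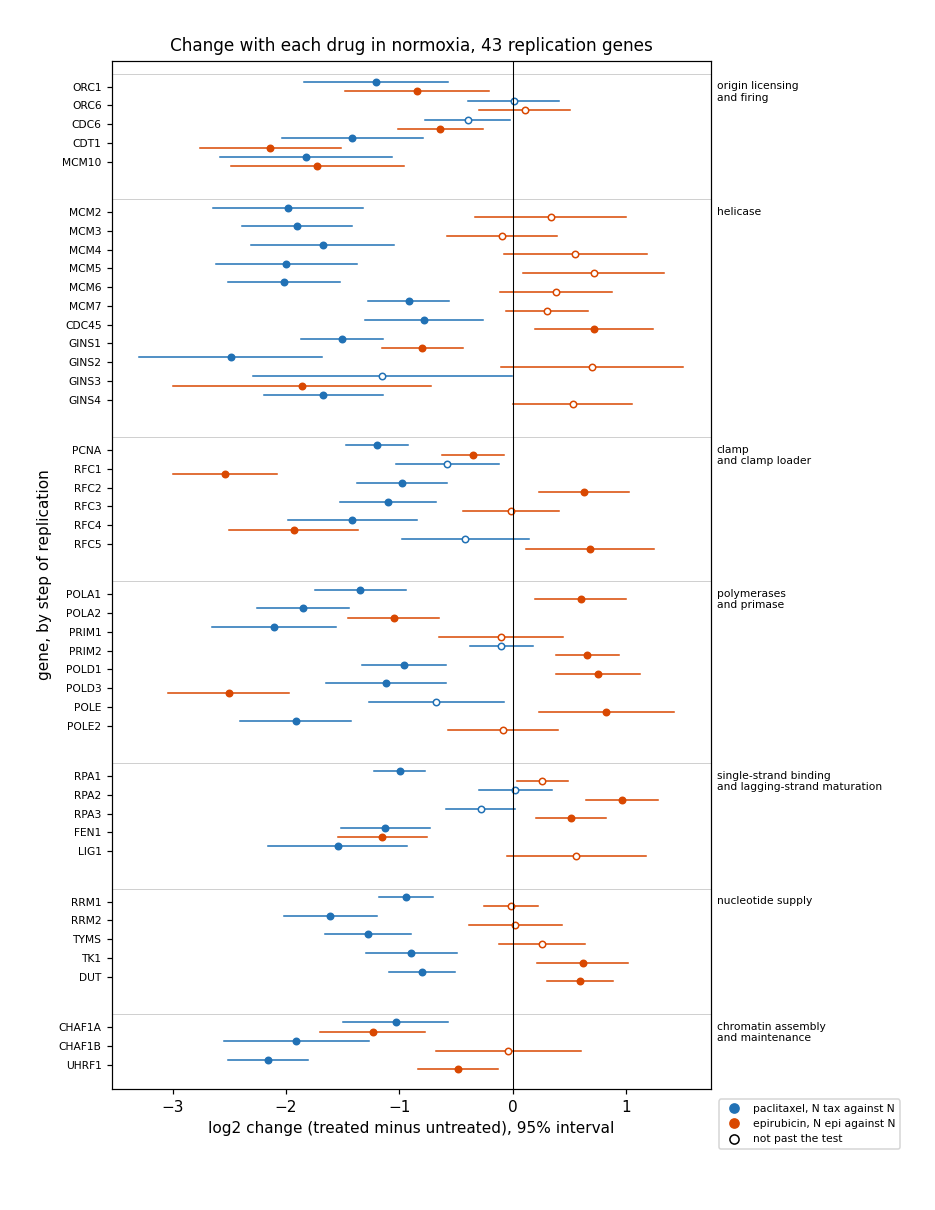
Log2 change of each of the 43 genes with paclitaxel (blue, N tax against N) and epirubicin (orange, N epi against N) on the deposited scale, with 95% confidence intervals from the limma fit; filled points passed the test. Paclitaxel points lie left of 0 for 41 genes, while epirubicin points spread to both sides, with RFC1 (-2.54), POLD3 (-2.51) and CDT1 (-2.14) farthest left. POLD3 with epirubicin is uncertain, because another of its probe sets rose. Both comparisons share the 2 N arrays.

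Of the 5 genes of origin licensing and firing, 4 fell with epirubicin and 3 with paclitaxel in normoxia, and 0 rose. CDT1, which brings the MCM ring to the origin, stood at 8.69 and 8.37 (N) and 8.91 and 9.01 (H) without drug, 7.11 and 7.11 (N tax) and 7.11 and 7.11 (H tax) with paclitaxel, and 5.90 and 6.89 (N epi) and 5.85 and 5.85 (H epi) with epirubicin. It fell by 2.14 on the log2 scale, 4.40-fold (SE 0.27, adjusted p = 0.000468) with epirubicin in normoxia and fell by 1.42 on the log2 scale, 2.67-fold (SE 0.27, adjusted p = 0.00769) with paclitaxel. In hypoxia CDT1 fell by 3.11 on the log2 scale, 8.64-fold (SE 0.27, adjusted p = 3.78e-05) with epirubicin. The 4 paclitaxel arrays carry 1 identical deposited value for CDT1, so that its spread there is not informative. A value repeated anywhere among the 12 arrays was seen for 27.7% of the probe sets tested. The same value on both arrays of a condition was seen for 14.2%. Both measures are looser than 4 identical arrays. A further CDT1 probe set changed by -1.82 with paclitaxel (adjusted p = 0.00196) and by -2.50 with epirubicin (adjusted p = 0.000185) in normoxia. MCM10, which helps to fire the loaded helicase, stood at 9.91 and 9.92 (N) and 8.90 and 9.32 (H) without drug, 7.64 and 8.53 (N tax) and 6.84 and 7.52 (H tax) with paclitaxel, and 8.02 and 8.36 (N epi) and 7.76 and 7.38 (H epi) with epirubicin. Its 2 N arrays lay above all 8 drug-treated arrays. MCM10 fell by 1.82 on the log2 scale, 3.54-fold (SE 0.33, adjusted p = 0.00614) with paclitaxel and by 1.72, 3.30-fold (SE 0.33, adjusted p = 0.00312) with epirubicin. ORC1, the largest subunit of the origin recognition complex, fell by 1.21 with paclitaxel and by 0.85 with epirubicin (SE 0.28, adjusted p = 0.0315). CDC6 fell by 0.64 with epirubicin (SE 0.16, adjusted p = 0.0118) and its difference of -0.40 with paclitaxel did not pass the test (adjusted p = 0.122). ORC6 was the exception in direction, with differences of 0.01 (95% interval -0.40 to 0.41) with paclitaxel and 0.10 (-0.30 to 0.51) with epirubicin in normoxia, neither past the test. In hypoxia ORC6 rose by 0.46 with epirubicin on the deposited scale (SE 0.18, adjusted p = 0.0492). Its hypoxic difference of 0.42 with paclitaxel did not pass the test (adjusted p = 0.110).

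In normoxia 10 of the 11 helicase genes fell with paclitaxel, whereas with epirubicin 2 fell, 1 rose and 8 did not pass the test. GINS2, a subunit of the complex that joins the MCM ring to the polymerases, stood at 9.67 and 9.68 (N) and 9.17 and 9.63 (H) without drug, 6.72 and 7.65 (N tax) and 6.53 and 7.41 (H tax) with paclitaxel, and 10.46 and 10.29 (N epi) and 10.38 and 10.20 (H epi) with epirubicin. The paclitaxel arrays lay below the untreated arrays and the epirubicin arrays above them, without overlap. GINS2 fell by 2.49 on the log2 scale, 5.61-fold (SE 0.35, adjusted p = 0.00201) with paclitaxel, the largest change of the 43 genes in that comparison, while its difference with epirubicin of 0.70 did not pass the test (-0.10 to 1.504, adjusted p = 0.127). MCM6, a subunit of the ring, stood at 12.43 and 12.38 (N) and 11.98 and 12.20 (H) without drug, 10.01 and 10.77 (N tax) and 9.91 and 9.95 (H tax) with paclitaxel, and 12.82 and 12.76 (N epi) and 12.83 and 12.77 (H epi) with epirubicin. It fell by 2.02 on the log2 scale, 4.05-fold (SE 0.22, adjusted p = 0.000662) with paclitaxel and differed by 0.38 with epirubicin in normoxia (adjusted p = 0.170). In hypoxia MCM6 rose by 0.71 on the log2 scale, 1.63-fold (SE 0.22, adjusted p = 0.0189) with epirubicin, and both epirubicin conditions lay above both untreated conditions. Centred on the poly-A controls, 0 of the 16 genes raised in hypoxia, MCM6 among them, passed the test. Across the ring in normoxia, MCM2 to MCM7 fell by 0.92 (MCM7) to 2.02 (MCM6) with paclitaxel, all 6 past the test. With epirubicin in normoxia they differed by -0.10 (MCM3) to 0.71 (MCM5). Of these 6, 0 passed the test and 1 had an unadjusted p under 0.05. In hypoxia with epirubicin, MCM5 rose by 1.28 (SE 0.27, adjusted p = 0.00333) and MCM4 by 0.78 (SE 0.27, adjusted p = 0.0353) on the deposited scale. MCM2, MCM3 and MCM7 differed there by 0.66, 0.32 and 0.35 and did not pass the test.

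CDC45, which completes the active helicase, fell by 0.78 with paclitaxel (SE 0.23, adjusted p = 0.0403) and rose by 0.72 on the log2 scale, 1.64-fold (SE 0.23, adjusted p = 0.0287) with epirubicin. Centred on the poly-A controls, CDC45 was among the 8 raised genes whose change lay below 0. On the deposited scale GINS1 and GINS3 went the other way from CDC45 with epirubicin. GINS3 stood at 7.51 and 7.32 (N) and 6.58 and 6.97 (H) without drug, 6.21 and 6.31 (N tax) and 4.97 and 6.13 (H tax) with paclitaxel, and 4.87 and 6.24 (N epi) and 5.12 and 4.37 (H epi) with epirubicin. Its 2 N epi arrays were far apart, and N epi replicate 2 lay between the 2 N tax arrays. GINS3 fell by 1.86 on the log2 scale, 3.63-fold (SE 0.50, adjusted p = 0.0138) with epirubicin, and its difference of -1.15 with paclitaxel did not pass the test (adjusted p = 0.137). GINS1 stood at 10.50 and 10.64 (N) and 10.03 and 10.34 (H) without drug, 9.11 and 9.02 (N tax) and 8.72 and 8.93 (H tax) with paclitaxel, and 9.88 and 9.67 (N epi) and 9.76 and 9.48 (H epi) with epirubicin. It fell by 0.80 on the log2 scale, 1.74-fold (SE 0.16, adjusted p = 0.00347) with epirubicin and fell by 1.51 with paclitaxel (SE 0.16, adjusted p = 0.000601). Centred on the medians, the GINS1 difference with epirubicin was -0.39 and missed the test. GINS4 fell by 1.67 with paclitaxel (SE 0.23, adjusted p = 0.00173) and differed by 0.53 with epirubicin (adjusted p = 0.0833), both in normoxia. The differences of the 4 GINS subunits with epirubicin in normoxia thus ran from -1.86 (GINS3) to 0.70 (GINS2). In hypoxia GINS4 rose by 1.15 with epirubicin on the deposited scale (SE 0.23, adjusted p = 0.00235).

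**Figure D2:**
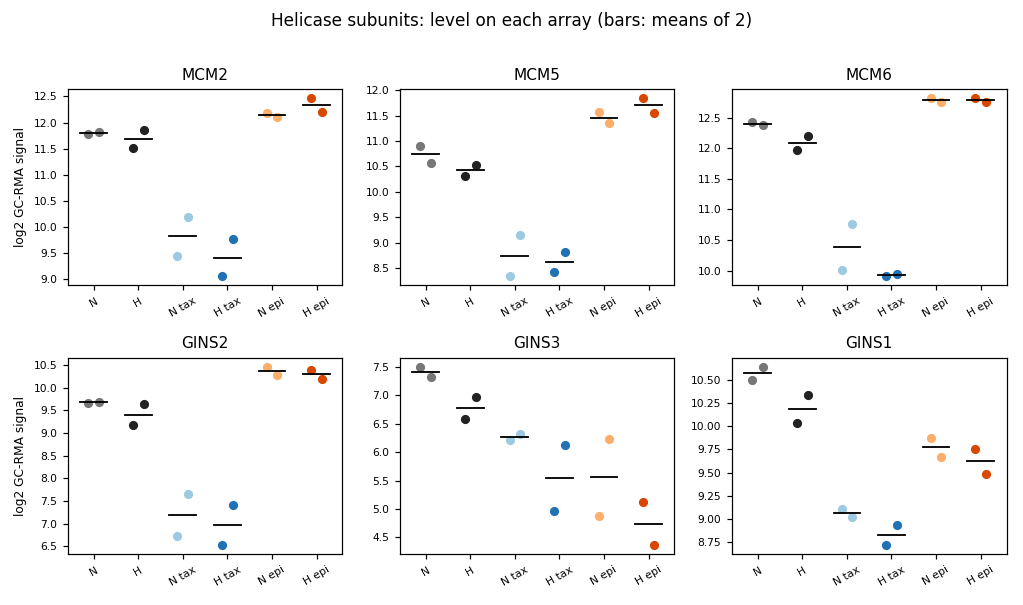
Log2 GC-RMA signal of 6 helicase genes on each array (points) with the mean of the 2 arrays (bars), by condition; the vertical scale differs between genes. MCM2, MCM5, MCM6 and GINS2 drop in N tax and H tax alone, whereas the means of GINS3 and GINS1 drop with both drugs. The drop of GINS3 with paclitaxel did not pass the test.

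In the clamp and its loader in normoxia, epirubicin lowered 3 of the 6 genes and raised 2 on the deposited scale, and paclitaxel lowered 4. RFC1, the large subunit that opens the clamp, stood at 9.58 and 9.43 (N) and 10.02 and 9.73 (H) without drug, 8.98 and 8.88 (N tax) and 9.17 and 8.92 (H tax) with paclitaxel, and 6.69 and 7.24 (N epi) and 6.66 and 6.42 (H epi) with epirubicin. All 4 epirubicin arrays lay below the lowest of the other 8. RFC1 fell by 2.54 on the log2 scale, 5.82-fold (SE 0.20, adjusted p = 6.74e-05) with epirubicin in normoxia, the largest fall of the 43 genes, and fell by 3.33 on the log2 scale, 10.1-fold (SE 0.20, adjusted p = 8.92e-06) in hypoxia. With paclitaxel in normoxia its difference was -0.58 and did not pass the test (adjusted p = 0.0715). RFC4, a small subunit, stood at 11.93 and 11.73 (N) and 12.06 and 11.85 (H) without drug, 10.48 and 10.35 (N tax) and 10.32 and 10.29 (H tax) with paclitaxel, and 9.94 and 9.86 (N epi) and 9.82 and 8.93 (H epi) with epirubicin. It fell by 1.93 on the log2 scale, 3.81-fold (SE 0.25, adjusted p = 0.000496) with epirubicin and fell by 1.42 on the log2 scale, 2.67-fold (SE 0.25, adjusted p = 0.00524) with paclitaxel. The other small subunits did not follow. RFC2 rose by 0.63 (SE 0.17, adjusted p = 0.0164) and RFC5 by 0.68 (SE 0.25, adjusted p = 0.0453) with epirubicin, and RFC3 differed by -0.02 (-0.44 to 0.41, adjusted p = 0.957). With paclitaxel RFC2 fell by 0.98 and RFC3 fell by 1.10, while RFC5 differed by -0.42 (adjusted p = 0.271). PCNA, the clamp itself, stood at 12.79 and 12.76 (N) and 12.76 and 12.86 (H) without drug, 11.50 and 11.66 (N tax) and 11.25 and 11.24 (H tax) with paclitaxel, and 12.33 and 12.51 (N epi) and 12.50 and 12.30 (H epi) with epirubicin. PCNA fell by 1.197 on the log2 scale, 2.29-fold (SE 0.12, adjusted p = 0.000511) with paclitaxel and fell by 0.35 with epirubicin, 1.28-fold (SE 0.12, adjusted p = 0.0356). Centred on the medians, its epirubicin difference turned to 0.05. The paclitaxel arrays of PCNA lay below the epirubicin arrays and these below the N arrays.

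**Figure D3:**
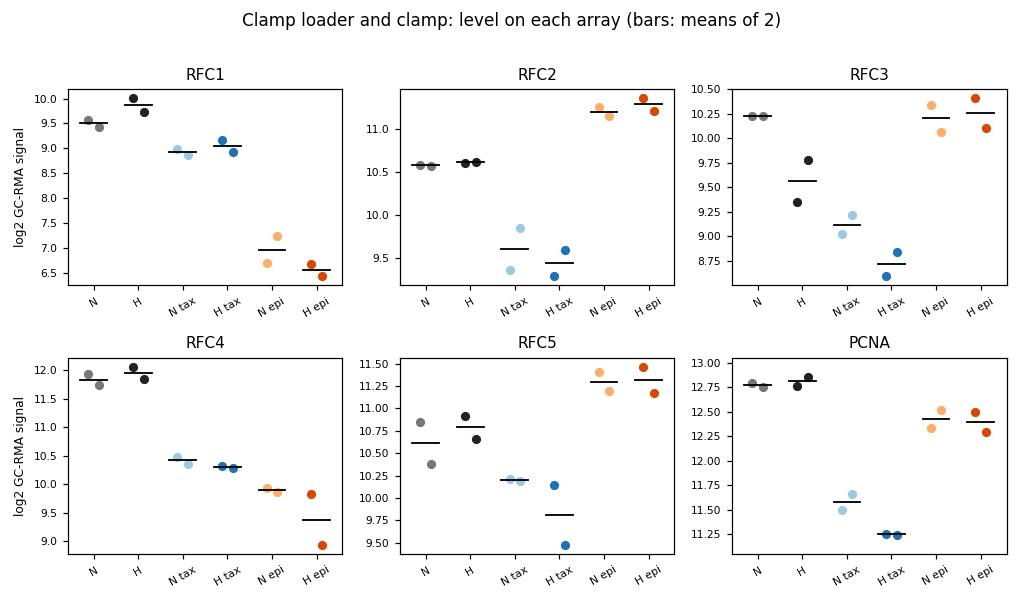
Log2 GC-RMA signal of the 5 clamp loader subunits and PCNA on each array (points) with the mean of the 2 arrays (bars), by condition; the vertical scale differs between genes. RFC1 and RFC4 are lowest in N epi and H epi, whereas RFC2, RFC3 and PCNA are lowest in N tax and H tax.

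Of the 8 polymerase and primase genes in normoxia, epirubicin raised 4 on the deposited scale and lowered 2, both accessory subunits, and paclitaxel lowered 6. POLD3, 1 of the 2 lowered by epirubicin, is uncertain because its probe sets opposed each other. POLD3, an accessory subunit of polymerase delta, stood at 9.11 and 9.08 (N) and 9.03 and 9.28 (H) without drug, 7.91 and 8.05 (N tax) and 7.36 and 7.69 (H tax) with paclitaxel, and 6.73 and 6.45 (N epi) and 6.08 and 5.38 (H epi) with epirubicin. Levels fell in the order untreated, paclitaxel, epirubicin with no overlap among these 3 sets of arrays. POLD3 fell by 2.51 on the log2 scale, 5.68-fold (SE 0.23, adjusted p = 0.000124) with epirubicin in normoxia. In hypoxia it fell by 3.42, 10.7-fold (SE 0.23, adjusted p = 1.41e-05), the largest change of the 43 genes in that comparison. Another POLD3 probe set opposed it past the test, with a rise of 0.92 in normoxia (adjusted p = 0.0111) and 1.55 in hypoxia (adjusted p = 0.000542). POLD3 with epirubicin is therefore uncertain, the only gene of the 43 whose probe sets opposed each other past the test. POLD1, the catalytic subunit of polymerase delta, rose by 0.75 with epirubicin (SE 0.16, adjusted p = 0.00535) and fell by 0.96 with paclitaxel (SE 0.16, adjusted p = 0.00439).

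POLA2, the accessory subunit of polymerase alpha, stood at 8.97 and 8.81 (N) and 8.28 and 8.43 (H) without drug, 6.91 and 7.18 (N tax) and 7.18 and 7.53 (H tax) with paclitaxel, and 8.03 and 7.65 (N epi) and 7.86 and 7.88 (H epi) with epirubicin. It fell by 1.05 on the log2 scale, 2.07-fold (SE 0.18, adjusted p = 0.00165) with epirubicin and fell by 1.85 on the log2 scale, 3.60-fold (SE 0.18, adjusted p = 0.000441) with paclitaxel. POLA1, the catalytic subunit, rose by 0.60 with epirubicin (SE 0.18, adjusted p = 0.0205) and fell by 1.34 with paclitaxel (SE 0.18, adjusted p = 0.00145). PRIM1, the small primase subunit that makes the RNA primer, stood at 10.17 and 10.03 (N) and 9.83 and 9.92 (H) without drug, 7.70 and 8.29 (N tax) and 7.66 and 7.93 (H tax) with paclitaxel, and 10.23 and 9.76 (N epi) and 10.31 and 9.92 (H epi) with epirubicin. PRIM1 fell by 2.11 on the log2 scale, 4.31-fold (SE 0.24, adjusted p = 0.000799) with paclitaxel, the 4 paclitaxel arrays lying below all others, and differed by -0.10 with epirubicin (-0.65 to 0.44). PRIM2, the large primase subunit, rose by 0.66 with epirubicin (SE 0.12, adjusted p = 0.00245) and differed by -0.10 with paclitaxel (adjusted p = 0.622). POLE2, an accessory subunit of polymerase epsilon, stood at 10.96 and 10.76 (N) and 10.92 and 11.04 (H) without drug, 8.72 and 9.17 (N tax) and 8.503 and 8.90 (H tax) with paclitaxel, and 10.96 and 10.58 (N epi) and 10.77 and 10.51 (H epi) with epirubicin. POLE2 fell by 1.92 on the log2 scale, 3.77-fold (SE 0.21, adjusted p = 0.000771) with paclitaxel and its N and N epi arrays overlapped. POLE, the catalytic subunit of polymerase epsilon, rose by 0.82 with epirubicin (SE 0.26, adjusted p = 0.0273), and its difference of -0.67 with paclitaxel missed the test (adjusted p = 0.0989).

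The single-strand binding protein RPA and the enzymes that finish the lagging strand comprised 5 genes. In normoxia 3 of them fell with paclitaxel, and 2 rose and 1 fell with epirubicin. RPA2, the middle subunit of RPA, stood at 10.26 and 10.27 (N) and 9.65 and 9.92 (H) without drug, 10.20 and 10.38 (N tax) and 10.05 and 10.20 (H tax) with paclitaxel, and 11.32 and 11.14 (N epi) and 11.51 and 11.33 (H epi) with epirubicin. The epirubicin arrays lay above all others and the N and N tax arrays overlapped. RPA2 rose by 0.96 on the log2 scale, 1.95-fold (SE 0.14, adjusted p = 0.000840) with epirubicin in normoxia, the largest rise of the 43 genes, and rose by 1.64 on the log2 scale, 3.11-fold (SE 0.14, adjusted p = 3.46e-05) in hypoxia. Centred on the poly-A controls, its normoxic difference was 0.24 and missed the test. RPA3, the small subunit, rose by 0.51 with epirubicin (SE 0.13, adjusted p = 0.0128), and RPA1, the large DNA-binding subunit, differed by 0.26 (adjusted p = 0.0547). With paclitaxel RPA1 fell by 0.998 (SE 0.10, adjusted p = 0.000488), while RPA2 and RPA3 differed by 0.02 and -0.28 and did not pass the test. FEN1, the nuclease that trims flaps between Okazaki fragments, stood at 12.39 and 12.18 (N) and 12.11 and 12.17 (H) without drug, 11.05 and 11.27 (N tax) and 10.54 and 10.97 (H tax) with paclitaxel, and 11.12 and 11.15 (N epi) and 10.74 and 10.45 (H epi) with epirubicin. It fell by 1.15 on the log2 scale, 2.22-fold (SE 0.17, adjusted p = 0.000936) with epirubicin and fell by 1.12 on the log2 scale, 2.18-fold (SE 0.17, adjusted p = 0.00279) with paclitaxel, and FEN1 was the only gene of this step lowered by epirubicin. LIG1, the ligase that seals the fragments, stood at 8.65 and 8.64 (N) and 9.003 and 9.001 (H) without drug, 6.75 and 7.44 (N tax) and 7.18 and 7.80 (H tax) with paclitaxel, and 9.30 and 9.11 (N epi) and 9.58 and 9.18 (H epi) with epirubicin. LIG1 fell by 1.55 on the log2 scale, 2.92-fold (SE 0.27, adjusted p = 0.00491) with paclitaxel and differed by 0.56 with epirubicin (-0.05 to 1.17, adjusted p = 0.111).

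All 5 genes of nucleotide supply fell with paclitaxel in normoxia. With epirubicin in normoxia 0 fell, 2 rose and 3 did not pass the test. RRM2, the small subunit of ribonucleotide reductase, stood at 13.20 and 13.23 (N) and 13.05 and 13.35 (H) without drug, 11.39 and 11.82 (N tax) and 11.22 and 11.48 (H tax) with paclitaxel, and 13.34 and 13.14 (N epi) and 13.40 and 13.28 (H epi) with epirubicin. The 4 paclitaxel arrays lay below all 8 others, and the N and N epi arrays overlapped. RRM2 fell by 1.61 on the log2 scale, 3.05-fold (SE 0.18, adjusted p = 0.000746) with paclitaxel and differed by 0.02 with epirubicin (-0.38 to 0.43). RRM1, the large subunit, fell by 0.94 with paclitaxel (SE 0.10, adjusted p = 0.000762) and differed by -0.01 with epirubicin (-0.25 to 0.22). TYMS, thymidylate synthase, stood at 13.89 and 13.88 (N) and 13.79 and 13.89 (H) without drug, 12.40 and 12.82 (N tax) and 12.50 and 12.84 (H tax) with paclitaxel, and 14.16 and 14.12 (N epi) and 14.42 and 14.26 (H epi) with epirubicin. TYMS fell by 1.28 on the log2 scale, 2.42-fold (SE 0.16, adjusted p = 0.00138) with paclitaxel and differed by 0.26 with epirubicin (adjusted p = 0.225). In hypoxia TYMS rose by 0.50 with epirubicin on the deposited scale (SE 0.16, adjusted p = 0.0255). TK1, the thymidine kinase of the salvage route, stood at 12.36 and 12.34 (N) and 12.84 and 12.88 (H) without drug, 11.21 and 11.70 (N tax) and 11.54 and 11.88 (H tax) with paclitaxel, and 13.005 and 12.93 (N epi) and 13.11 and 12.97 (H epi) with epirubicin. It rose by 0.62 on the log2 scale, 1.53-fold (SE 0.18, adjusted p = 0.0179) with epirubicin and fell by 0.90 with paclitaxel (SE 0.18, adjusted p = 0.00841). In hypoxia the TK1 difference of 0.18 with epirubicin did not pass the test (adjusted p = 0.406). DUT, which removes dUTP and supplies dUMP for thymidylate, stood at 12.29 and 12.33 (N) and 12.35 and 12.42 (H) without drug, 11.37 and 11.65 (N tax) and 11.49 and 11.35 (H tax) with paclitaxel, and 12.89 and 12.91 (N epi) and 12.88 and 13.05 (H epi) with epirubicin. DUT rose by 0.59 on the log2 scale, 1.51-fold (SE 0.13, adjusted p = 0.00504) with epirubicin and fell by 0.80 with paclitaxel (SE 0.13, adjusted p = 0.00338). Centred on the poly-A controls, the epirubicin differences of TK1 and DUT in normoxia were -0.11 and -0.13.

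**Figure D4:**
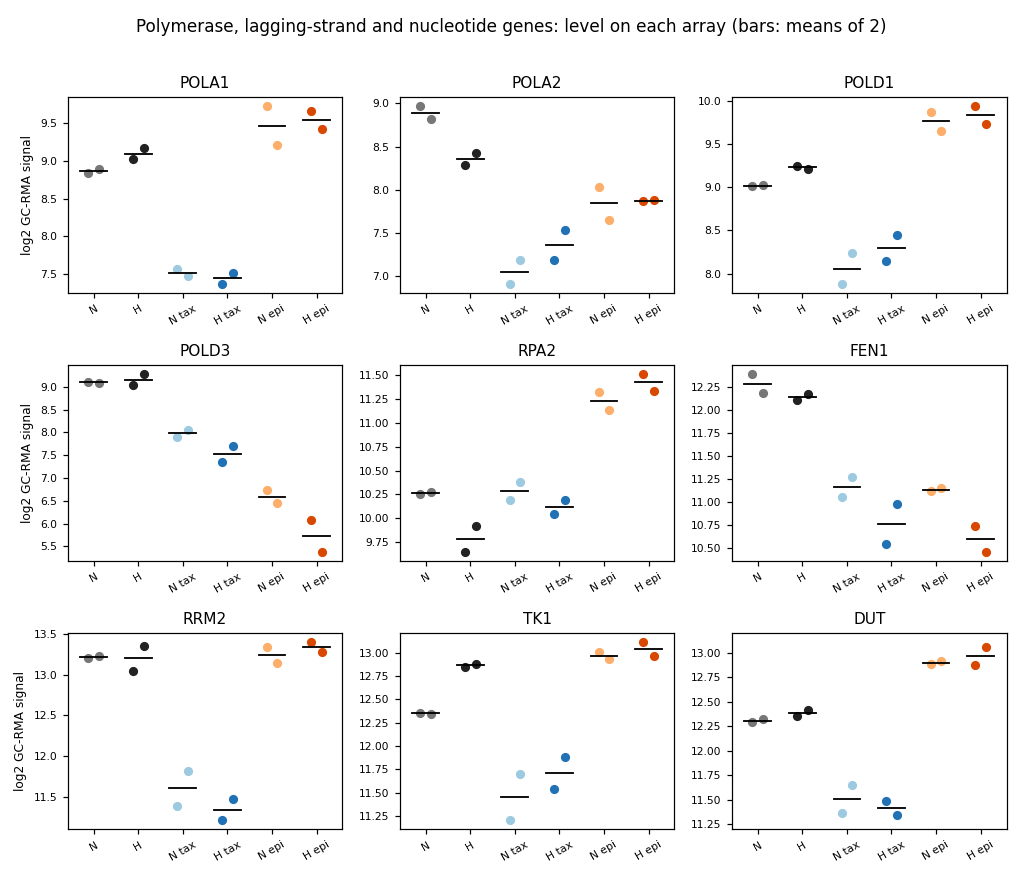
Log2 GC-RMA signal of 4 polymerase genes, RPA2, FEN1 and 3 nucleotide supply genes on each array (points) with the mean of the 2 arrays (bars), by condition; the vertical scale differs between genes. POLA1 and POLD1 are highest and POLD3 is lowest in the epirubicin conditions, and RRM2, TK1 and DUT are lowest in the paclitaxel conditions. POLD3 with epirubicin is uncertain, because another of its probe sets rose.

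The 3 genes of chromatin assembly and maintenance all fell with paclitaxel. UHRF1, which recognizes hemimethylated DNA behind the fork and recruits DNMT1, stood at 12.02 and 11.999 (N) and 11.41 and 11.73 (H) without drug, 9.75 and 9.96 (N tax) and 8.96 and 9.29 (H tax) with paclitaxel, and 11.50 and 11.56 (N epi) and 11.47 and 11.40 (H epi) with epirubicin. The 4 paclitaxel arrays lay below all others. UHRF1 fell by 2.16 on the log2 scale, 4.47-fold (SE 0.15, adjusted p = 0.000157) with paclitaxel in normoxia and by 2.44, 5.44-fold (SE 0.15, adjusted p = 5.62e-05), in hypoxia, the largest change there. With epirubicin in normoxia it fell by 0.48 (SE 0.15, adjusted p = 0.0282), a difference that became -0.08 and missed the test when arrays were centred on their medians. CHAF1B, the middle subunit of chromatin assembly factor 1, stood at 7.28 and 7.20 (N) and 7.02 and 7.17 (H) without drug, 4.89 and 5.77 (N tax) and 5.14 and 5.60 (H tax) with paclitaxel, and 7.27 and 7.13 (N epi) and 7.39 and 7.02 (H epi) with epirubicin. CHAF1B fell by 1.91 on the log2 scale, 3.76-fold (SE 0.28, adjusted p = 0.00236) with paclitaxel and differed by -0.04 with epirubicin (-0.68 to 0.60). CHAF1A, the large subunit of the same factor, stood at 9.61 and 9.42 (N) and 8.69 and 8.996 (H) without drug, 8.30 and 8.66 (N tax) and 7.94 and 8.26 (H tax) with paclitaxel, and 8.25 and 8.30 (N epi) and 8.30 and 7.87 (H epi) with epirubicin. CHAF1A fell by 1.24 on the log2 scale, 2.36-fold (SE 0.20, adjusted p = 0.00148) with epirubicin and fell by 1.03 with paclitaxel (SE 0.20, adjusted p = 0.00854).

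Set directly against each other in normoxia (N epi against N tax), 32 of the 43 genes were higher with epirubicin and 3 were lower, where 30.3% of all genes were higher and 33.6% lower, with a median of 1.26 against a median of 0 over all genes. Centred on the medians the counts were 34 and 2, against 44.2% and 25.8% of all genes. On the poly-A controls they were 12 and 5, against 2.85% and 34.6%, with all 32 differences still above 0. GINS2 differed most, by 3.19, 9.12-fold (SE 0.35, adjusted p = 0.000138). MCM5 followed with 2.71 (SE 0.27, adjusted p = 9.13e-05) and MCM6 with 2.40 (SE 0.22, adjusted p = 5.86e-05). All 5 nucleotide genes were higher with epirubicin, from 0.92 (RRM1) to 1.63 (RRM2). The 3 genes that were lower with epirubicin were RFC1 at -1.97 (SE 0.20, adjusted p = 9.71e-05), POLD3 at -1.39 (SE 0.23, adjusted p = 0.00109) and CDT1 at -0.72 (SE 0.27, adjusted p = 0.0461). POLD3 is uncertain with epirubicin, and in this comparison too 1 further probe set of the 43 genes opposed its gene past the test. Both N tax arrays carry the same CDT1 value, so the spread of CDT1 there is not informative. FEN1 (-0.03, -0.42 to 0.36) and MCM10 (0.10, -0.66 to 0.86) were among the 8 that did not pass the test.

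In limma's test of hypoxia against normoxia, 0 of the 43 genes passed in each of the 3 drug states. Without drug (H against N), 5.75% of all genes fell and 4.26% rose, and 10 of the 43 differed at an unadjusted p under 0.05, against 24.9% of all genes, so that this count lay near the background. The changes of the 43 genes ran from -0.80 (MCM10, -1.56 to -0.04) to 0.51 (TK1, 0.11 to 0.92), with a median of -0.05 against -0.03 over all genes. The lowest adjusted p was that of RFC3, at 10.22 on both N arrays and 9.35 and 9.77 in H, a difference of -0.66 (-1.08 to -0.23, adjusted p = 0.0639). Adding the third arrays by their titles gave 10 genes past the test in place of 0. They were the same 10 that differed at an unadjusted p under 0.05. The share of all genes past the test in that setting is not given here. TK1 was then raised by 0.42, and 9 were lowered, namely MCM10 at -0.91, CHAF1A at -0.75, RFC3 at -0.66, CDC6 at -0.53, POLA2 at -0.52, RPA2 and UHRF1 at -0.50, ORC6 at -0.49 and GINS1 at -0.41. With paclitaxel (H tax against N tax), 0 genes passed, against 0.268% of all genes lower and 0.982% higher, and 5 differed at an unadjusted p under 0.05, against 12.1% of all genes. UHRF1 came closest, at -0.73 (-1.08 to -0.37, adjusted p = 0.0765), and it passed at -0.60 with the third arrays added by title. With epirubicin (H epi against N epi), 0 genes passed, against 1.49% of all genes lower and 0.214% higher, and 2 differed at an unadjusted p under 0.05, against 17.7% of all genes. POLD3, whose level with epirubicin is uncertain because its probe sets opposed each other, was lowest there, at -0.86 (-1.39 to -0.33, adjusted p = 0.117). At least 1 gene passed once N epi replicate 1 or H epi replicate 1 was left out, with the share of all genes not given here.

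**Figure D5:**
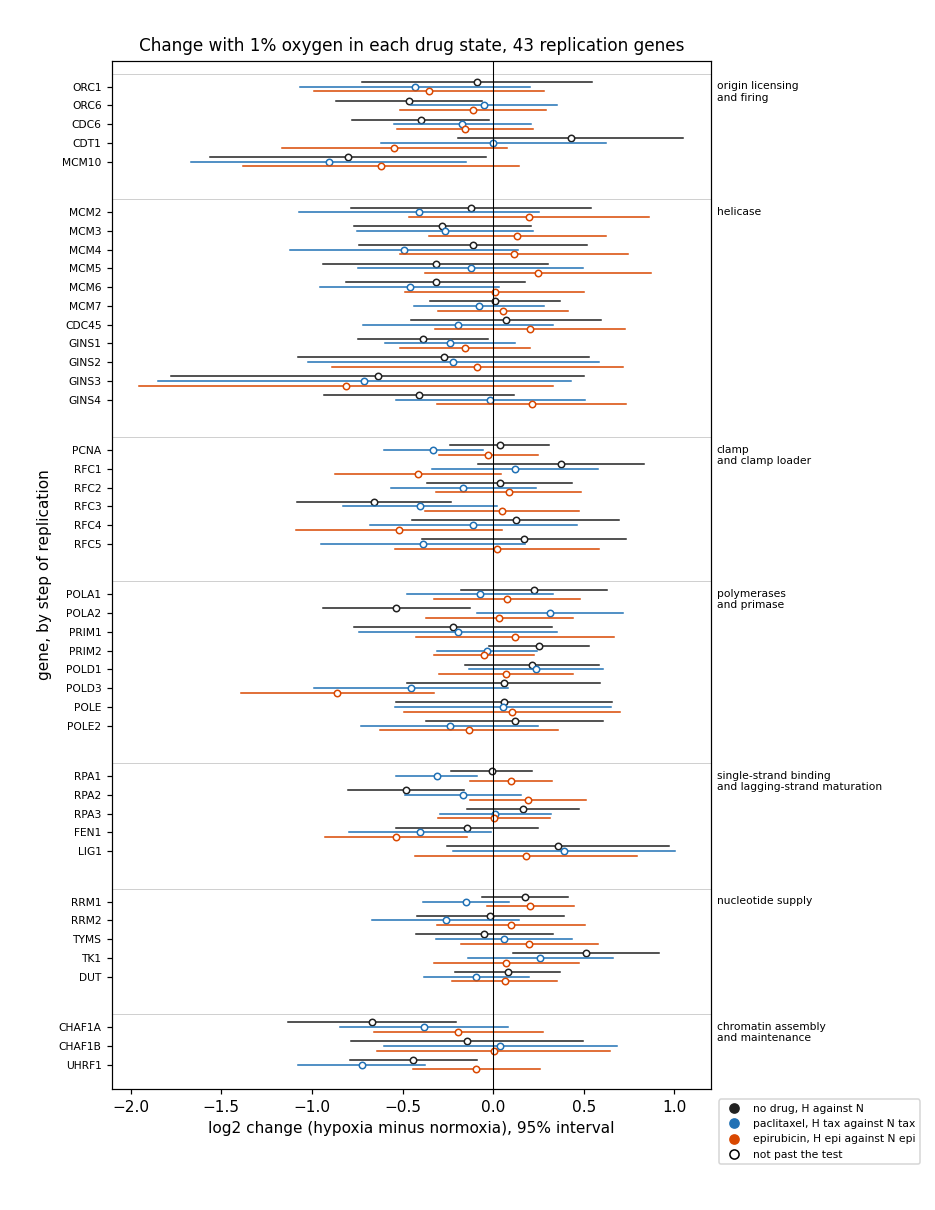
Log2 change of each of the 43 genes from normoxia to hypoxia without drug (black), with paclitaxel (blue) and with epirubicin (orange), with 95% confidence intervals from the limma fit; open points did not pass the test. All points are open and lie between -0.91 and 0.51.

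The change with hypoxia was also compared between drug states as a difference of differences. With paclitaxel against no drug, 0 of the 43 genes passed the test, against 0.0714% of all genes lower and 0.0357% higher, and 1 differed at an unadjusted p under 0.05, against 7.55% of all genes. That gene was POLA2, at 0.85 (adjusted p = 0.393). With epirubicin against no drug, 0 passed, against 2.53% lower and 1.56% higher, and 5 differed at an unadjusted p under 0.05, against 21.1% of all genes. RPA2 had the lowest adjusted p there, at 0.67 (0.22 to 1.13, adjusted p = 0.102). Genes passed once N epi replicate 1 or H epi replicate 1 was left out, with the share of all genes not given here. The other CDT1 probe set passed the test in this comparison at -1.64 (adjusted p = 0.0473) and in H epi against N epi at -1.37 (adjusted p = 0.0464), while the probe set used for CDT1 gave -0.97 (adjusted p = 0.198) and -0.55 (adjusted p = 0.368). Genes known to be raised by hypoxia were read as a check. NDRG1 stood at 12.06 and 11.79 (N) and 15.55 and 15.21 (H) without drug, 12.41 and 12.23 (N tax) and 15.45 and 15.25 (H tax) with paclitaxel, and 10.29 and 10.88 (N epi) and 10.32 and 10.08 (H epi) with epirubicin, so that the hypoxic arrays were higher without drug and with paclitaxel and not with epirubicin. VEGFA stood at 13.20 and 13.28 (N) and 13.90 and 13.66 (H) without drug, 13.17 and 13.04 (N tax) and 13.72 and 13.28 (H tax) with paclitaxel, and 8.76 and 11.13 (N epi) and 7.71 and 7.85 (H epi) with epirubicin.

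Of the other genes of the pathway, taken from lists of 75 genes, 72 could be tested. With paclitaxel in normoxia 39 of the 72 fell and 3 rose, against 15.0% and 8.94% of all genes. Centred on the poly-A controls, 15 fell and 1 rose, against 2.90% and 1.53% of all genes. With epirubicin 24 fell and 24 rose, near the 30.8% and 24.2% of all genes, and the split depended on the scale. On the poly-A scale 26 were lower and 0 higher, against 35.7% and 0.50% of all genes. On the median scale 16 were lower and 35 higher, against 22.7% and 44.4%. The median changes on the deposited scale were -0.60 with paclitaxel and 0.03 with epirubicin. By list for paclitaxel, 5 of 14 other origin and helicase factors, 7 of 12 fork and loader factors, 2 of 4 polymerase subunits, 8 of 16 nucleotide genes, 7 of 9 chromatin genes and 10 of 17 G1/S regulators fell. For epirubicin, 9 of the 14 origin and helicase factors fell and 2 rose, whereas 1 of the 16 nucleotide genes fell and 7 rose, and 1 of the 9 chromatin genes fell and 5 rose. On the poly-A scale 9 origin and helicase factors were lower, while 0 nucleotide and 0 chromatin genes were higher. The 3 largest changes with epirubicin were in G1/S regulators. E2F8, a repressor of the E2F family, fell by 3.81 on the log2 scale, 14.0-fold (SE 0.41, adjusted p = 0.000229). CDC25A, the phosphatase that activates CDK2, fell by 3.27 on the log2 scale, 9.63-fold (SE 0.29, adjusted p = 0.000108), and CCNE1, cyclin E1, fell by 3.16 on the log2 scale, 8.94-fold (SE 0.29, adjusted p = 0.000117). With paclitaxel the 3 largest were CCNE2, cyclin E2, at -3.05 (SE 0.42, adjusted p = 0.00181), E2F8 at -2.42 (SE 0.41, adjusted p = 0.00447) and E2F1 at -2.32 (SE 0.50, adjusted p = 0.0126). Without drug, hypoxia lowered 5 of the 72 and raised 1, near or under the 5.75% and 4.26% of all genes, and 0 passed on the poly-A scale. The largest of these were CDC25A at -1.14 (SE 0.29, adjusted p = 0.0451), ORC5, an origin recognition subunit, at -1.12 (SE 0.16, adjusted p = 0.00496) and ASF1A, a histone chaperone, at -0.92 (SE 0.18, adjusted p = 0.0190).

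The other probe sets of the 43 genes gave a check within the arrays. A further 29 probe sets of 22 genes passed the presence filter and 11 did not. For paclitaxel in normoxia, 24 of 24 further probe sets of genes that passed the test had the same sign. For epirubicin it was 15 of 16, the exception being POLD3. Both probe sets of GINS3 were lower with epirubicin, and the other one passed the test with paclitaxel too (-1.14, adjusted p = 0.0359). The other RFC1 probe set changed by -1.63 with epirubicin (adjusted p = 0.00197).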

How the data were processed

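Total RNA of MDA-MB-231 cells was hybridized to 1-colour Affymetrix HG-U133 Plus 2.0 arrays. The authors deposited GC-RMA signals on the log2 scale, already background-corrected and normalized. The study's methods name alternative chip definitions from AffyProbeMiner, whereas the deposited probe sets carry standard Affymetrix names, so which probes stand behind a value is uncertain; the GC-RMA version is not given in the sources used here. Of 18 arrays, 12 had labels that do not contradict each other and were compared, 2 per condition; their number limits the precision. A probe set was present when its linear signal exceeded 8.84 on both arrays of at least 1 condition. limma 3.58.1 (R 4.3.3) fitted the 12 arrays together, and p-values (two-sided) were adjusted by Benjamini-Hochberg over 24151 present probe sets, with a threshold of 0.05. Intervals are 95% intervals of the moderated test. The scripts were tested on simulated data. Full values are given for the 2 genes per step with the largest change past the test with each drug or hypoxia alone, and for the largest in each other comparison; genes opposed to most of their step are named. The genes, pathway lists and marker lists were chosen with earlier results of these data known. Alternatives covered scaling, filter, probe set choice, variance model, the arrays with contradictory labels, replicates left out and a replicate block.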

Additional observations from a re-analysis of the deposited data

Results flagged for a closer look

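The change with hypoxia differed between epirubicin and no drug for 2 genes of the wider pathway lists, by the limma test of the difference of differences. CLSPN, an adaptor of the replication checkpoint, differed by 1.05 on the log2 scale (SE 0.22, adjusted p = 0.0398). Its signal was 3.76 and 4.11 (N) and 3.88 and 3.76 (H) without drug, and 3.76 and 3.76 (N epi) and 4.54 and 4.84 (H epi) with epirubicin, close to the presence threshold and with 1 deposited value repeated. CCND1, cyclin D1, differed by 0.70 (SE 0.16, adjusted p = 0.0498). Its signal was 10.90 and 10.89 (N) and 10.31 and 10.25 (H) without drug, and 11.95 and 11.81 (N epi) and 11.95 and 11.97 (H epi) with epirubicin.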

How the results depend on the processing

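The number of the 43 genes past the test depended on the third arrays, the scale and single arrays. Adding the third arrays by title gave, in place of 0, 10 genes for hypoxia without drug, 2 for hypoxia with paclitaxel, 2 for hypoxia with epirubicin, and 1 and 3 for the difference of the hypoxia changes with paclitaxel and epirubicin. The shares of all genes past the test in this setting are not given here. These 6 arrays each correlated more with the condition of the title (r from 0.9903 to 0.9972) than with that of the source name (0.850 to 0.968), although for the N epi title the highest correlation was with H epi. Placing them by source name left 0 in all 5 drug comparisons and turned UHRF1 with epirubicin to 0.46. A trended, robust variance gave 2 for hypoxia without drug and 1 with paclitaxel, and fitting the own conditions alone gave 1 for hypoxia without drug. Centring on the poly-A controls, chosen after seeing the data, gave 18 for N tax against N, 13 for N epi against N, 25 for H tax against H, 14 for H epi against H and 17 for N epi against N tax, and turned TK1 to -0.11 and DUT to -0.13 with epirubicin. The shares of all genes on that scale stand with these comparisons above. Leaving out 1 array gave 28 to 35, 13 to 26, 33 to 39, 17 to 30 and 34 to 36 genes in these 5 comparisons, 0 to 2 for hypoxia with epirubicin and for its difference from hypoxia without drug, and 0 to 0 in the others. The cause was not tested. Replicate numbers did not pair the arrays (r from -0.18 to 0.30), and the replicate block gave 33, 26, 36, 27 and 34 genes in the 5 drug comparisons and 0 in the others. Without the epirubicin arrays, also chosen after seeing the data, N tax against N gave 35 and H tax against H gave 39. The shares of all genes past the test are not given here for the variance, own-condition, replicate-block and no-epirubicin settings. These counts thus do not tell the 43 genes from all genes.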
